A study of Mus musculus with 4 samples.

Results

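The genes described here encode secreted proteins and receptor chains of the interleukin-12 (IL-12) and interleukin-6 (IL-6) cytokine families: the cytokine chains Ebi3, Il12a, Lif and Osm, and the receptor chains Il27ra, Il12rb1, Il12rb2, Il6ra, Il6st and Lifr. They were chosen by name, with earlier results of these data known. All 10 of 10 were matched by symbol among the 50600 gene identifiers counted. The libraries are 4 RNA-seq libraries of primary regulatory T cells from C57BL/6NJ mice, labelled as biological replicates 1 to 4 of a single group. The labels link a protocol for differentiating CD4 T cells, and the names in the file headers carry the words activated and 72 h, so all 4 libraries share that treatment. The labels give no genetic change and no comparison group, record 1 donor identifier for all 4 libraries, give no sex and list age as unknown. With 1 group there is no contrast between conditions, so levels were compared between genes within libraries and between libraries.

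IL-12 family cytokines are heterodimers of an alpha chain and a beta chain that resembles a soluble receptor. Ebi3 is the beta chain of IL-27, where it pairs with the product of Il27, and of IL-35, where it pairs with the product of Il12a; IL-35 has been described as a suppressive product of mouse regulatory T cells. IL-6 family cytokines such as LIF and oncostatin M signal through Il6st, a chain shared by most receptors of the family and joined by a chain specific to each cytokine. Receptors of both families signal through JAK kinases and STAT factors, and in T cells IL-6 is known to oppose the regulatory fate while IL-12 and STAT4 drive the type 1 helper fate.

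Levels are given as TPM, counts per exon length as a share of the library, computed from the deposited counts and exon lengths, so that genes can be compared per length. Total counts per library ran from 51460018 in replicate 4 to 121477975 in replicate 1, a ratio of 2.36. All 6 markers of regulatory T cells, Foxp3 and Il2ra among them, and all 5 markers of T cells were above 1 TPM in every library. Replicates 1 and 2 stood apart from replicates 3 and 4 in sex-linked transcripts: Xist was at 173, 199, 0.592 and 0.758 TPM in replicates 1 to 4, and the Y-linked Eif2s3y at 0.0874, 0.133, 46.7 and 62.7 TPM. Those values are at odds with a single donor for all 4 libraries, although the labels give 1 donor identifier, so the libraries are not all technical repeats of 1 animal. Separate animals for each library are not stated in the labels, and the spread between replicates 1 and 2, or between 3 and 4, may be technical. In bulk RNA, fewer cells expressing a gene and less RNA of it per cell cannot be told apart.

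The windows of 250 bases before the annotated start are shown for the abundant ligands Ebi3 and Lif, for Il12rb2, the most variable receptor chain after Il27ra among those at 1 TPM or above in every library, and for Lifr, the member that was nearly silent. The sequences are from the RefSeq-based promoter table for build GRCm38.p6, are written on the gene's own strand and end at the base before the start used in that table, which for Lif and Lifr lies slightly inside the gene coordinates given below. Capitals mark matches, on either strand, to the STAT motif TTCNNNGAA, the AP-1 motif TGANTCA and the NFAT core GGAAA, none of which overlapped another in these windows. Of the 32841 windows of this length in the table, 7.02% hold the STAT letters, 6.75% the AP-1 letters and 55.6% the NFAT core. The Ebi3 window is chr17:55952373-55952622 on the plus strand, the Lif window chr11:4257318-4257567 on the plus strand, the Il12rb2 window chr6:67376189-67376438 on the minus strand, and the Lifr window, the first of 2 in the table, chr15:7129322-7129571 on the plus strand.
Ebi3: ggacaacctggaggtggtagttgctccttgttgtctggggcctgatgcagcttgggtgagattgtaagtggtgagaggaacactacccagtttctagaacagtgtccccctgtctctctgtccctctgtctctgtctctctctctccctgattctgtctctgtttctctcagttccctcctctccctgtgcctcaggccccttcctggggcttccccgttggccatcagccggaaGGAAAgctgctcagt
Lif: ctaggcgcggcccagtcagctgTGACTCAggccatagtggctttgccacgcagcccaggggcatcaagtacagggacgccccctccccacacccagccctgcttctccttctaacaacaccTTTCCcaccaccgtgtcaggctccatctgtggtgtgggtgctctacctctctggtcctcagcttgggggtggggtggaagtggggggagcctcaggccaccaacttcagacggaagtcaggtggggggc
Il12rb2: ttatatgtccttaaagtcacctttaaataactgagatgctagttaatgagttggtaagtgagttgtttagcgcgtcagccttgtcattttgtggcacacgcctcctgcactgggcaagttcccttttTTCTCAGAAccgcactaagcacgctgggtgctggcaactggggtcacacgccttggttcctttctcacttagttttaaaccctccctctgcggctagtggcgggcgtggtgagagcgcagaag
Lifr: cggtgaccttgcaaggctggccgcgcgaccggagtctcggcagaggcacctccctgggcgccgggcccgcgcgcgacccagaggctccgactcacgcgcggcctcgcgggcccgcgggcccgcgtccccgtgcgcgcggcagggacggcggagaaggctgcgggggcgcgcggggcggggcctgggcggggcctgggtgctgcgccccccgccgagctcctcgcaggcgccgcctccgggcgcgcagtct
The Il12rb2 window holds 1 STAT match, beginning at position -123, and the Lif window 1 AP-1 match at position -228 and 1 NFAT core at position -129, counted back from the start. In Ebi3 the match is 1 NFAT core at position -15. No match to these letters was found in the Lifr window, in which 82.4% of bases are G or C and the CpG dinucleotide stands at 1.01 times its expected frequency, against a median of 52.4% and 0.374 over all windows. The second Lifr window, whose sequence is not shown, differs, with 50.8% and 0.188, and it also holds no match. The corresponding values are 56% and 0.103 for Ebi3, 63.6% and 0.238 for Lif, and 50% and 0.640 for Il12rb2. These are descriptions of letters in a window and not sites of binding.

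The family was split sharply by level. Lif and Ebi3 had mean levels of 201 and 199 TPM, Osm and Il12rb1 96.8 and 92.6 TPM, and Il6ra 74.5 TPM. The means fell through 39.5 TPM for Il27ra, 23.2 TPM for Il6st and 7.95 TPM for Il12rb2 to 1.05 TPM for Il12a and 0.0310 TPM for Lifr. Of the 10 genes, 8 were at 1 TPM or above in every library, all except Il12a and Lifr, against 48.9% of the 21764 protein-coding genes and 23.7% of all genes. Their median level was 57.0 TPM, against 1.04 TPM for protein-coding genes. The 10 genes were chosen with earlier results of these data known, so these figures are no test against the background. In the full lists of the family, 4 of 15 ligand genes and 6 of 11 receptor genes were at 1 TPM or above in every library. The plot of levels by library shows the order of the 10 genes.

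**Figure D1:**
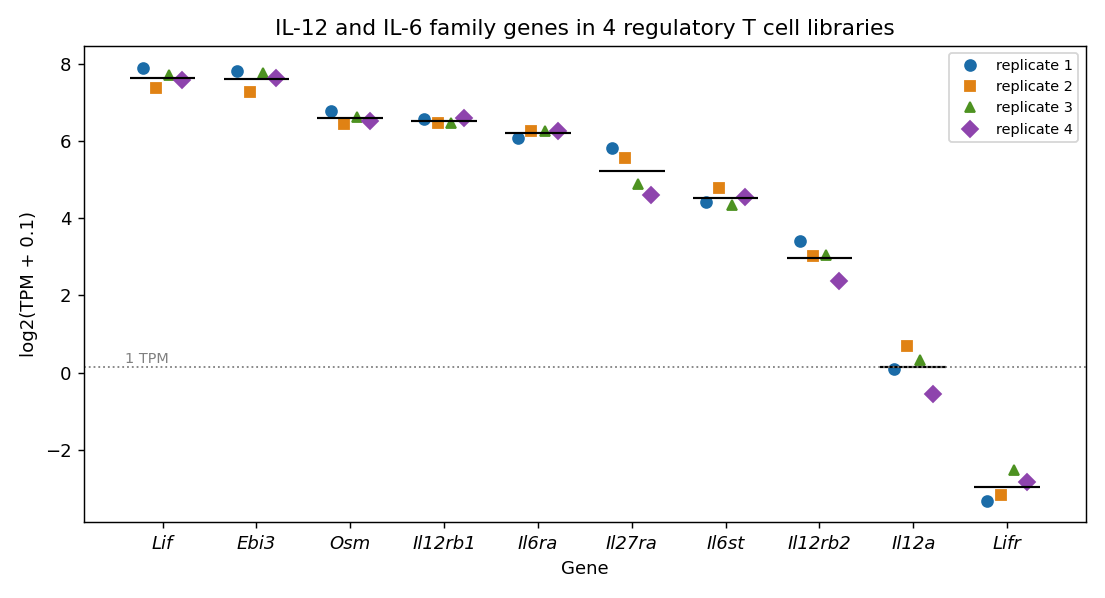
Level of each of the 10 genes in log2(TPM + 0.1), 1 point per library, with a bar at the mean over the 4 libraries and a dotted line at 1 TPM; genes run from the highest mean to the lowest. Lif (201 TPM) and Ebi3 (199 TPM) lead, Il12a sits at the dotted line, and Lifr lies far below the others, with 0 counts in replicate 1.

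Among the ligands, Lif (ENSMUSG00000034394.14, mm10 chromosome 11, 4257557 to 4272514, plus strand), the leukemia inhibitory factor that holds embryonic stem cells undifferentiated, was at 240, 165, 210 and 191 TPM in replicates 1 to 4. Replicate 1 was the highest and replicate 2 the lowest, and the mean of 201 ± 31.6 TPM (SD, n = 4) exceeded that of 96.0% of protein-coding genes. Osm (ENSMUSG00000058755.3, chromosome 11, 4236420 to 4241026, plus strand), which encodes oncostatin M, lies before Lif on the same strand with 16.5 kb and no protein-coding gene between them. Osm was at 111, 86.3, 97.9 and 92.2 TPM in replicates 1 to 4. It followed the same library order as Lif, from replicate 1 down to replicate 2, at a mean of 96.8 ± 10.4 TPM (SD, n = 4). Lif exceeded Osm in every library, by 1.05 ± 0.08 in log2(TPM + 0.1) (SD, n = 4), or 1.99 without division by length. The protein-coding gene on the other side of Osm, Castor1, was at 14.5 ± 1.42 TPM, and the one beyond Lif, Hormad2, at 0.483 TPM (n = 4).

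Ebi3 (ENSMUSG00000003206.6, chromosome 17, 55952623 to 55957021, plus strand), the shared beta chain of IL-27 and IL-35, was at 225, 155, 217 and 199 TPM in replicates 1 to 4. Replicate 2 was again the lowest and replicate 1 the highest, and the mean was 199 ± 31.2 TPM (SD, n = 4). The ranges of Lif and Ebi3 overlapped, and Lif was the higher in 2 of 4 libraries, so their order is not set by these data. Ebi3 exceeded Osm in all 4 libraries with no overlap of their ranges, at 2.05 times its mean.

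The alpha chains that pair with Ebi3 were scarce or not detected. Il12a (ENSMUSG00000027776.12, chromosome 3, 68690644 to 68698547, plus strand), the alpha chain of IL-12 and IL-35, had 59, 46, 43 and 15 counts in replicates 1 to 4, which is 0.970, 1.50, 1.15 and 0.585 TPM. Replicate 2 was the highest and replicate 4 the lowest, and the exact Poisson 95% interval of replicate 4, 0.327 to 0.964 TPM, did not overlap the interval of replicate 2, 1.10 to 2.00 TPM; such intervals cover counting error only. The mean of Il12a was 1.05 ± 0.379 TPM (SD, n = 4). Ebi3 exceeded Il12a in every library by a mean of 7.48 ± 0.66 in log2(TPM + 0.1) (SD, n = 4). Il27, the alpha chain of IL-27, had 2 counts in replicate 3 and 0 in the others, and Ebi3 exceeded it by 10.71 ± 0.43 on the same scale (SD, n = 4), a size that the added 0.1 TPM sets.

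The remaining ligands of the family were low. Of the 11 ligand genes outside the named 4, 1 was at 1 TPM or above in every library: Clcf1, the cardiotrophin-like ligand of the CNTF receptor, at 5.16 ± 0.612 TPM (SD, n = 4). Il23a, the alpha chain of IL-23, was at 0.747 ± 0.219 TPM, Cntf at 0.730 ± 0.239 TPM, Ctf1 at 0.480 ± 0.132 TPM and Il11 at 0.274 ± 0.139 TPM (SD, n = 4). No count fell on Il6, Il12b, Ctf2 or Il31 in any library. For Il12b, the beta chain of IL-12 and IL-23, the limit of 3 counts that a count of 0 allows is 0.0427 to 0.101 TPM over the libraries, and for Il6 it is 0.0346 to 0.0819 TPM. The plot of the family sets these levels beside the receptor chains.

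**Figure D2:**
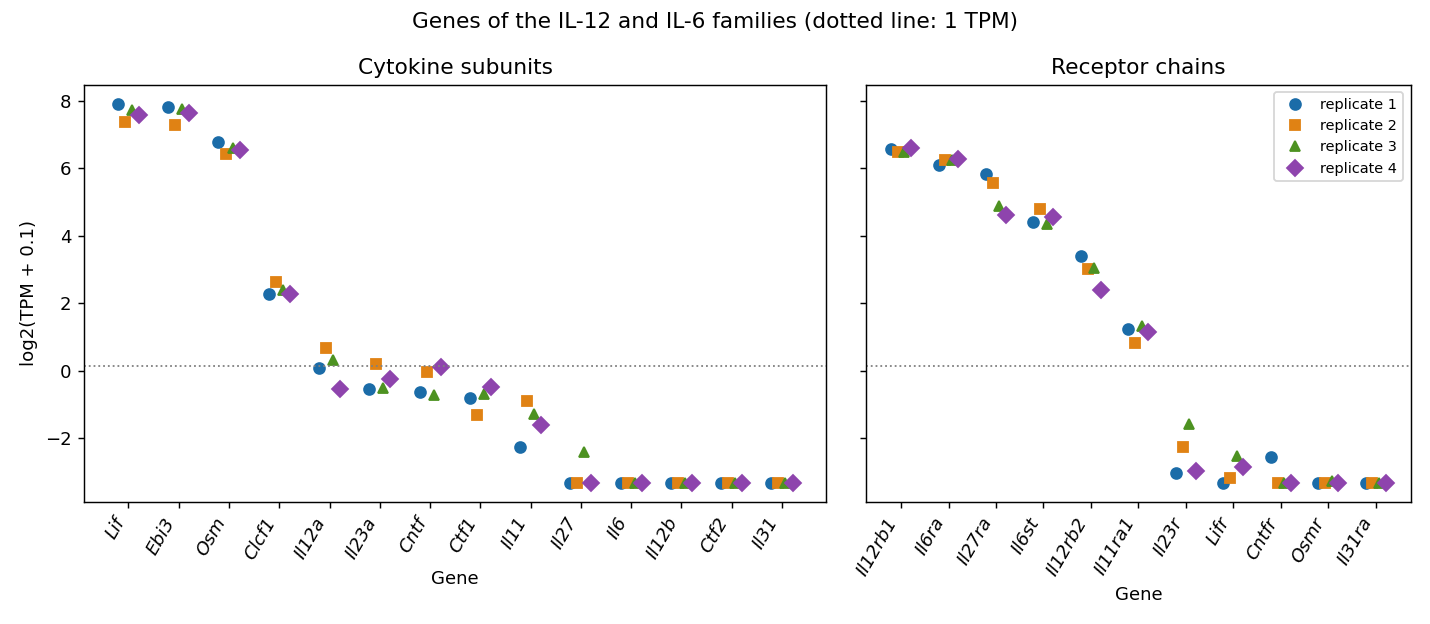
Levels of ligand and receptor genes of the IL-12 and IL-6 families in log2(TPM + 0.1), 1 point per library; the dotted line marks 1 TPM, and libraries with 0 counts share the lowest position. Of the ligands, 4 sit above the line in every library (Lif, Ebi3, Osm and Clcf1), and among the 11 receptor chains 6 do.

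Counted by complete cytokine, 0 of the 4 heterodimers IL-12, IL-23, IL-27 and IL-35 had both chains at 1 TPM or above in every library. IL-35 came nearest, with Ebi3 abundant and Il12a at 1 TPM or above in replicates 2 and 3. Transcript levels of the chains do not measure the secreted dimer.

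Among the receptor chains, Il12rb1 (ENSMUSG00000000791.9, chromosome 8, 70808449 to 70821424, plus strand), the chain shared by the IL-12 and IL-23 receptors, was at 95.5, 88.9, 89.0 and 97.0 TPM in replicates 1 to 4. These values lie close together, at a mean of 92.6 ± 4.27 TPM (SD, n = 4), and they overlap those of Osm, which was the higher in 2 of 4 libraries. Il12rb2 (ENSMUSG00000018341.12, chromosome 6, 67291318 to 67376188, minus strand), the signalling chain of the IL-12 receptor and a marker of type 1 helper cells, was at 10.5, 8.04, 8.17 and 5.12 TPM in replicates 1 to 4. Replicate 1 was highest and replicate 4 lowest, 2.05 times apart, around a mean of 7.95 ± 2.19 TPM (SD, n = 4).

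Il12rb1 exceeded Il12rb2 in every library, by 3.57 ± 0.45 in log2(TPM + 0.1) (SD, n = 4). Il23r, the other partner of Il12rb1 and the neighbour of Il12rb2 at a distance of 46.7 kb, had 2, 5, 13 and 1 counts in replicates 1 to 4. Il12rb2 exceeded Il23r in every library by 5.42 ± 0.75 on the same scale (SD, n = 4), and by 2.99 with 1 TPM added in place of 0.1. The exons of Il12rb2 overlap those of Serbp1, a strongly expressed gene on the opposite strand, over 1519 bp or 40.04% of their length. Per library, Il12rb2 counts were 1.81%, 1.17%, 1.38% and 0.823% of the Serbp1 counts. Over the 4 libraries, the 2947 counts of Il12rb2 were 18.5% of the 15908 Serbp1 fragments expected in the shared exons if Serbp1 were evenly covered. Of 15 other genes lying at least 90% inside exons of a strong gene on the opposite strand, 7 had 0 counts, the median was 0.00215% of the fragments expected and the highest 11.3%. These shares are not on the same footing as the 18.5%, which also holds counts from the Il12rb2 exons outside the overlap. The part of Serbp1 fragments in the Il12rb2 counts was not tested.

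Il27ra (ENSMUSG00000005465.9, chromosome 8, 84030294 to 84042589, minus strand), the specific chain of the IL-27 receptor, was at 56.7, 47.4, 29.6 and 24.3 TPM in replicates 1 to 4. Replicates 1 and 2 were both higher than replicates 3 and 4, with a highest-to-lowest ratio of 2.33 around a mean of 39.5 ± 15.1 TPM (SD, n = 4). The counts behind these values were 7082, 2996, 2279 and 1280, so counting error, at a coefficient of variation of 1.81%, was small beside the observed 38.4%.

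Il6ra (ENSMUSG00000027947.11, chromosome 3, 89864059 to 89913196, minus strand), the ligand-binding chain of the IL-6 receptor, was at 68.0, 76.2, 76.4 and 77.3 TPM in replicates 1 to 4. Replicate 1 was the low library and the other 3 were nearly equal, giving 74.5 ± 4.32 TPM (SD, n = 4). Il6st (ENSMUSG00000021756.12, chromosome 13, 112464070 to 112510086, plus strand), the shared signalling chain, was at 21.3, 27.7, 20.3 and 23.4 TPM in replicates 1 to 4. Replicate 2 was its highest library, whereas it was the lowest for Lif, Ebi3 and Osm, and its mean was 23.2 ± 3.26 TPM (SD, n = 4).

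Il6ra exceeded Il6st in every library by 1.69 ± 0.18 in log2(TPM + 0.1) (SD, n = 4). Il27ra exceeded Il6st by 1.41, 0.77, 0.54 and 0.05 in replicates 1 to 4, so the chains of the IL-27 receptor were far apart in replicate 1 and nearly level in replicate 4. The mean of those differences was 0.69 ± 0.56 (SD, n = 4), or 0.46 without replicate 1, and it turned to -0.97 when CPM, which is not divided by gene length, was used. Il12rb1 exceeded Il6st by 2.00 ± 0.22 (SD, n = 4), or 0.57 without division by length.

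Lifr (ENSMUSG00000054263.11, chromosome 15, 7129559 to 7197489, plus strand), the specific chain through which LIF signals, had 0, 2, 17 and 6 counts in replicates 1 to 4, which is 0, 0.0107, 0.0747 and 0.0385 TPM. The mean was 0.0310 ± 0.0334 TPM (SD, n = 4), or 0.0164 TPM without replicate 3, the highest library. The 0 counts in replicate 1, the deepest library, allow up to 0.00813 TPM. Il6st exceeded Lifr in every library: the difference of Lifr minus Il6st was -7.50 ± 0.48 in log2(TPM + 0.1) (SD, n = 4), and -4.54 with 1 TPM added. Its neighbour Osmr, the oncostatin M receptor chain 255 kb away, had 1 count in replicate 3 and 0 in the others. Lif and Osm were thus abundant in libraries where the specific chains of their receptors were at or near 0.

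Of the other receptor chains, Il11ra1, the specific chain of the IL-11 receptor, was at 2.12 ± 0.325 TPM (SD, n = 4). Cntfr had 7 counts in replicate 1 and 0 elsewhere, and Il31ra, which lies 12.7 kb from Il6st, had 0 counts in every library, with a limit of 0.0229 to 0.0543 TPM. Of 9 receptors, 4 had every chain at 1 TPM or above in all libraries: those of IL-12, IL-27, IL-6 and IL-11. The lowest chain was Il12rb2 for the IL-12 receptor, Il6st for both the IL-27 and IL-6 receptors, and Il11ra1 for the IL-11 receptor. For the IL-27 receptor this holds per exon length, and in CPM Il27ra was the lower chain. The receptors of IL-23, LIF, oncostatin M, CNTF and IL-31 each lacked at least 1 chain by that measure.

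All 10 differences between paired genes, including that between Il6st and Il2rg given below, had the same sign in 4 of 4 libraries. In the exact two-sided sign-flip permutation test, 2 of the 16 assignments of signs were as extreme in each pair, so p was 0.13 before and after Benjamini-Hochberg adjustment over the 10 pairs, the smallest value that 4 libraries can give. The plot of paired differences shows the spread of each pair, which was largest for Il12rb2 minus Il23r (SD 0.75) and Ebi3 minus Il12a (SD 0.66).

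**Figure D3:**
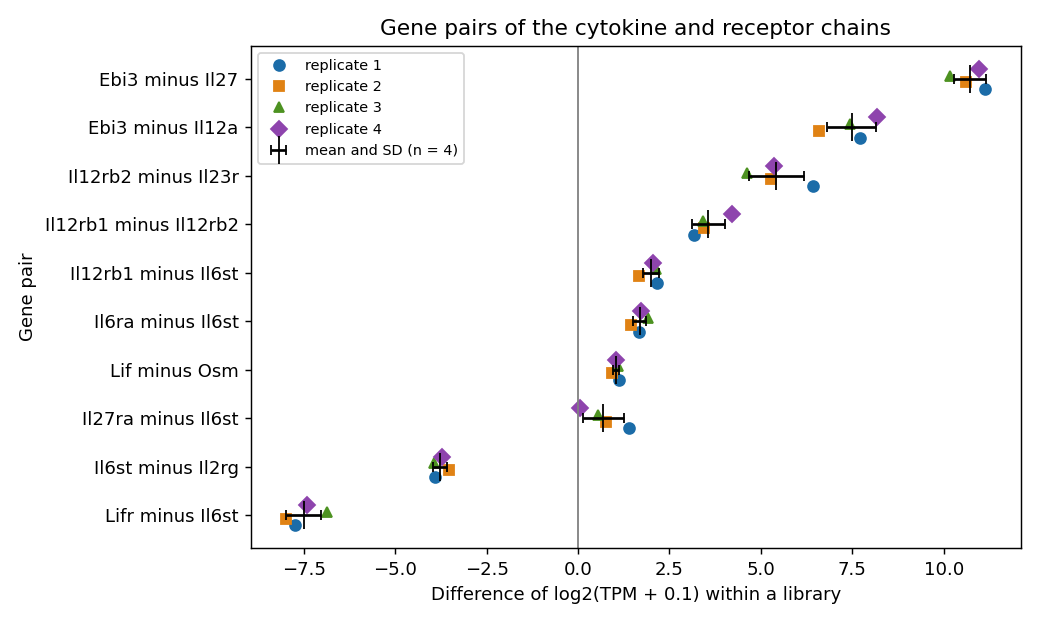
Difference in log2(TPM + 0.1) between the genes of each of 10 pairs, 1 point per library, with the mean and SD over 4 libraries; the line at 0 marks equal levels. Il27ra minus Il6st runs from 1.41 in replicate 1 to 0.05 in replicate 4, whereas Lif minus Osm has an SD of 0.08.

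The kinases and factors that these receptors use were all present: 6 of 6 genes were at 1 TPM or above in every library, against 48.9% of protein-coding genes. The lists were chosen with earlier results of these data known, so their counts are no test against that share. Stat3, the factor activated by IL-6 family receptors, was at 214 ± 12 TPM, Jak1 at 201 ± 12.3 TPM, Jak2 at 149.6 ± 14.0 TPM and Stat4, the factor activated by IL-12, lowest at 25.1 ± 2.46 TPM (SD, n = 4). Of the negative regulators, 7 of 7 were at that level, led by the cytokine-induced inhibitors Socs1 at 409 ± 40.9 TPM and Cish at 381 ± 30.0 TPM and by the phosphatase gene Ptpn11 at 126 ± 6.41 TPM, with Pias3 lowest at 14.3 ± 1.30 TPM (SD, n = 4). Genes for shedding of receptors and for folding of secreted chains were likewise detected, 5 of 5, from the chaperone Calr at 927 ± 9.99 TPM, the disulfide isomerase P4hb at 714 ± 24.4 TPM and Hsp90b1 at 527 ± 23.8 TPM to the protease Adam17, which releases Il6ra from the membrane, at 50.1 ± 3.56 TPM (SD, n = 4).

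Of 9 genes of the STAT4 and type 1 helper response, 5 were at 1 TPM or above in every library, near the 48.9% of protein-coding genes. The counts of this and the next 2 lists are no test against that share, for the same reason. Furin was at 361 ± 26.4 TPM, Il18r1 at 41.3 ± 7.41 TPM and Tbx21, the type 1 helper regulator, at 22.7 ± 5.23 TPM (SD, n = 4). Of 12 genes of the STAT3 response, 11 were at that level, led by Ccr6 at 512 ± 21.2 TPM, the kinase Pim1 at 365 ± 25.1 TPM and Il17f at 193 ± 34.4 TPM, with Il21 lowest at 3 counts in all. For comparison, 8 of 8 chains of the receptors that share the common gamma chain were at 1 TPM or above in every library, from Il2ra at 2168 ± 242 TPM, Il2rb at 1098 ± 65.5 TPM and Il21r at 349 ± 35 TPM down to Il15ra at 2.48 ± 0.492 TPM (SD, n = 4). The common gamma chain gene Il2rg itself was at 315 ± 4.77 TPM, and Il6st minus Il2rg was -3.77 ± 0.20 in log2(TPM + 0.1) (SD, n = 4), or -1.56 without division by length.

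Ebi3, Lif, Osm and Il6ra are also expressed by antigen-presenting and other cells, so markers of those cells were read in the same libraries. Of 9 dendritic cell markers, 3 were at 1 TPM or above in every library and the list summed to 574 to 659 TPM per library. Nearly all of that sum was Cd74 at 600.1 TPM, followed by H2-Ab1 at 16.7 TPM and Zbtb46 at 4.51 TPM. Siglech, Clec9a and Cd209a had 0 counts in every library. Of 8 macrophage or monocyte markers, 2 were at that level, Cd68 at 4.51 TPM and Adgre1 at 2.55 TPM; the list summed to 7.07 to 8.69 TPM, and Lyz2 and Fcgr1 had 0 counts in every library. None of the B cell markers reached 1 TPM in every library (0 of 6, summed 1.03 to 1.63 TPM, highest Cd79a and Blnk, Cd22 at 0 counts), nor did any granulocyte or mast cell marker (0 of 6, summed 0 to 0.129 TPM, with Mcpt4, S100a8, S100a9 and Ly6g at 0 counts). Natural killer markers had 1 of 4 at that level, Eomes, with Klrb1c next, Ncr1 and Klra8 at 0 counts and a sum of 3.12 to 3.72 TPM. The CD8 pair had 1 of 2, Cd8b1 at 11.5 TPM, and summed to 8.70 to 13.4 TPM. Markers of stromal, endothelial or epithelial cells had 1 of 6, Epcam, with Col1a1 next, Col3a1 and Cdh5 at 0 counts and a sum of 2.88 to 4.13 TPM. The part of other cell types in the levels of Lif, Ebi3, Osm and Il6ra was not tested.

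The spread between libraries differed widely among the genes of the family. For the 8 genes at 1 TPM or above in every library, the median coefficient of variation was 14.9%, against 8.53% over the 11984 genes at that level, and the median ratio of highest to lowest library was 1.41, against 1.21. Il27ra and Il12rb2, 2 of the 8, had ratios of at least 2, as did 4.56% of all genes at that level. The ratio of Il27ra exceeded that of 97.4% of those genes. Because the family genes were chosen with earlier results of these data known, these figures are no test against the background.

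A quasi-likelihood model in edgeR then compared each gene's dispersion over the 4 libraries with that of genes of like abundance. It tested 9 of the 10 genes, all except Lifr, which fell under the count filter, and 0 of the 9 passed an adjusted p of 0.05, against 0.00734% of the 13625 genes tested. At an unadjusted p under 0.05 it listed 4 of the 9, Il27ra, Lif, Ebi3 and Il12rb2, against 4.70% of all genes tested. Their ratios of dispersion to the trend were 26.2 for Il27ra, 7.90 for Lif, 7.19 for Ebi3 and 6.14 for Il12rb2, against 0.707 for Il12rb1 and 0.945 for Il6ra. The genes were chosen with earlier results of these data known, so the 4 of 9 is no test against the background share.

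Leaving out 1 library moved most of these ratios by a wide margin. Il27ra ran from 14.4 without replicate 1 or without replicate 4 to 60.3 without replicate 2, and Lif from 4.33 without replicate 1 to 8.75 without replicate 4. Ebi3 fell to 2.15 without replicate 2 (unadjusted p = 0.170 in edgeR), which ended its listing. Il12rb2 fell to 1.69 without replicate 4 (unadjusted p = 0.256 in edgeR) and to 3.73 without replicate 1 (unadjusted p = 0.0682 in edgeR), and rose to 11.4 without replicate 2. Il6ra ran from 0.165 without replicate 1 to 3.35 without replicate 2, and was 2.17 with the trends of GC content and length removed. Il12rb1 stayed below the trend in each of these fits, at 0.507 to 0.738 with a library left out and 0.142 with the trends removed.

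Il27ra ranked 10 of all genes tested, with an adjusted p of 0.671 in edgeR. With limma 0 of the 9 passed. Under other settings 1 of the genes, Il27ra, passed with no filter on low counts (background 0.424%), as a DESeq2 dispersion outlier (background 0.316%) and without replicate 2 (background 0.129%). Over the alternatives with edgeR or limma, its adjusted p ran from 8.31e-05 with no filter to 0.955 without replicate 4.

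**Figure D4:**
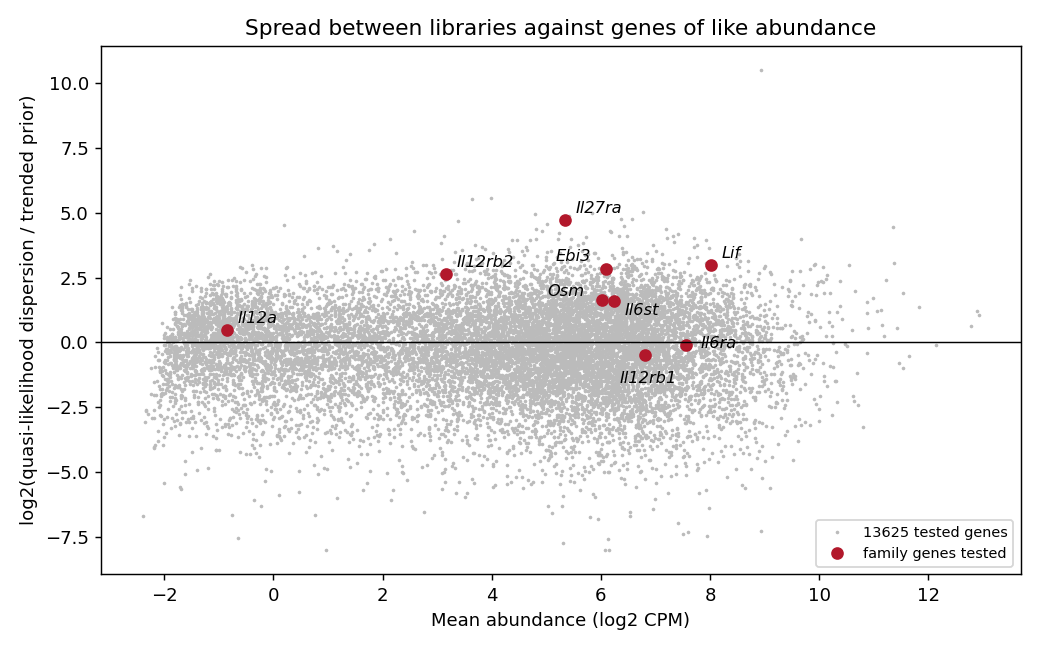
Dispersion between the 4 libraries divided by the trend for genes of like abundance (log2 axis) against mean abundance in log2 CPM (counts scaled by library total), for 13625 tested genes and, in red, the 9 family genes tested. Il27ra has the highest ratio of the 9, 26.2 on the linear scale, and Il12rb1 the lowest, 0.707.

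The 3 abundant ligands shared 1 order of libraries. Ebi3, Lif and Osm each ran from replicate 1 through 3 and 4 down to replicate 2, which is 3 of the 8 genes at 1 TPM or above in every library. The order was read from these genes after their values were seen, so the count restates it; 8.94% of all genes at that level had the same order. Replicate 1 was also the deepest library; with every library thinned to the same total, the order was kept in all 3 genes. With the trends of GC content and exon length removed, an alternative chosen after seeing the data, Lif and Osm kept this order and Ebi3 became highest in replicate 3. Among the 10 genes, none of the 5 receptor chains at 1 TPM or above in every library had this order, as the plot of deviations shows. Of the other family genes at that level, the receptor chain Il11ra1 was highest in replicate 3 (2.44 TPM). The ligand Clcf1 was highest in replicate 2 (6.04 TPM). The order was no trait of ligands: Il2rb and Il21r, receptor chains of the common gamma chain group, had it too.

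**Figure D5:**
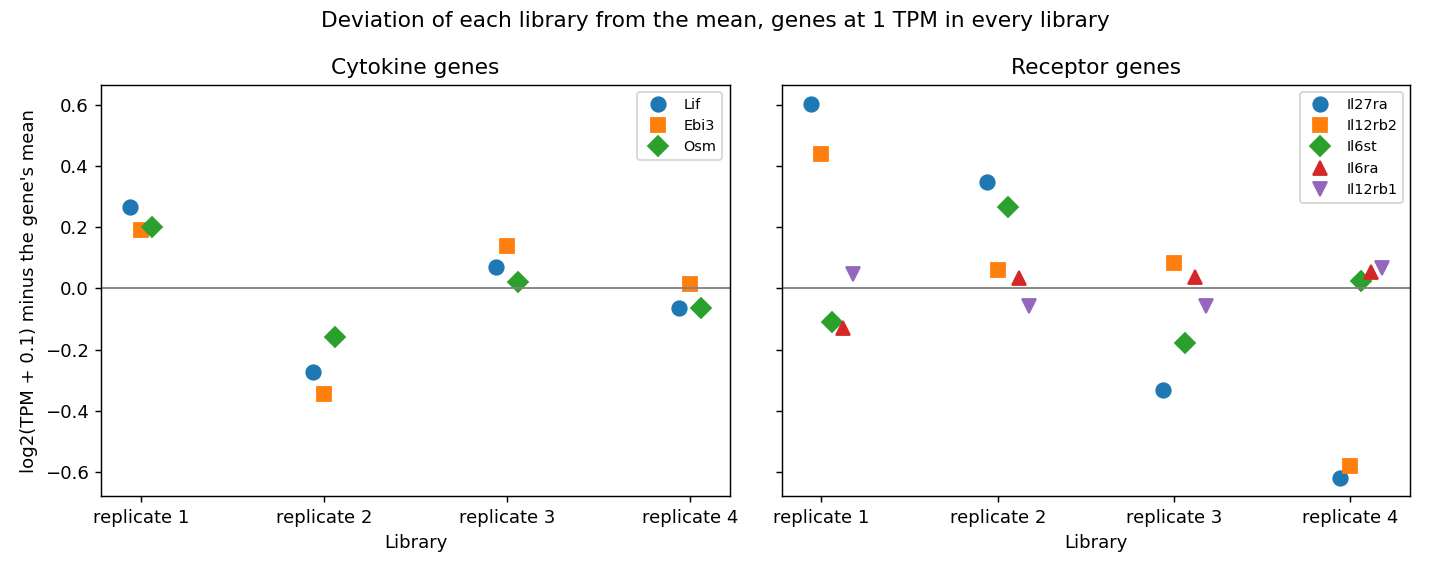
Deviation of each gene from its own mean over the 4 libraries, in log2(TPM + 0.1), 1 point per library, for the 8 genes at 1 TPM or above in every library, ligands on the left and receptor chains on the right. Ebi3, Lif and Osm are highest in replicate 1 and lowest in replicate 2, and Il27ra is above its mean in replicates 1 and 2 and below it in replicates 3 and 4.

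Replicates 1 and 2, which stood apart in sex-linked transcripts, did not overlap replicates 3 and 4 for 2 of the 8 genes, Il27ra and Il6ra, against 21.7% of all genes at that level. Il27ra was the 1 gene of the 8 with both replicates 1 and 2 above, a direction seen in 13.9% of all genes, and Il6ra had both below. These shares are near the background, and the part of sex in the level of Il27ra was not tested. For Il6ra, replicates 2 and 3 were within counting error of each other, at 76.2 and 76.4 TPM. Their Poisson 95% intervals were 74.8 to 77.6 TPM and 75.1 to 77.6 TPM.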

How the data were processed

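Gene expression was measured by RNA-seq in 4 libraries of 1 group, placed there by their cell type label. Each deposited table gives a raw count of fragments for every gene. Per the file headers, featureCounts 1.4.6-p4 counted paired fragments with both ends mapped on exons grouped by gene, with the reverse-stranded setting 2, on mm10 with GENCODE M13. The headers name star2 in the input files; for the aligner, no version or options were found in the sources at hand. The linked library protocol is for poly(A)+ RNA, although the assay is named total RNA-seq.

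Counts were divided by the deposited exon length and scaled to TPM. Paired genes were compared within libraries as differences of log2(TPM + 0.1) with an exact two-sided sign-flip permutation test over 4 libraries, adjusted by Benjamini-Hochberg over 10 pairs; detection meant 1 TPM in every library. Variation between libraries was tested on counts with edgeR 4.0.16 (TMM, filterByExpr, intercept-only quasi-likelihood fit with a robust prior), adjusted over all genes tested at 0.05, with limma 3.58.1 and DESeq2 1.42.0 as alternatives, under R 4.3.3. The test was checked on simulated data. Counting intervals are exact Poisson 95% intervals; with 0 counts, 3 counts is the limit. Gene types and GC content came from GENCODE M21, and promoter windows were matched by symbol to 7 of the 10 genes (Il27ra, Il12rb1 and Osm had none). A protein sequence was not used here.

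The text names the 10 genes, all genes of the 10 pairs, every family ligand and receptor, the 3 highest and the lowest of the other pathway lists (8 lists in all), the 2 highest and the undetected of each of 9 marker lists, and flanking genes; some genes that this rule names are not reported here. Castor1, Hormad2, Serbp1 and Zbtb46 were named after their values were seen. The members and lists were chosen with earlier results of these data known. Alternatives were other pseudocounts, CPM without length, other scalings, filters, thinning, leaving out each library, and removing GC and length trends, which was added after seeing the data.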

Additional observations from a re-analysis of the deposited data

Results flagged for a closer look

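Il6ra was 68.0 TPM in replicate 1 and 76.2 to 77.3 TPM in the other 3 libraries. The gap between replicate 1 and the nearest library was 0.882 of the whole range, above Dixon's 95% critical value for 4 samples. Of 27 quantities examined this way, the levels of family genes with at least 10 counts and the 10 paired differences, it was the only 1 above that value, and chance gives about 1 such in 20 groups.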

How the results depend on the processing

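Of the differences between paired genes, Il27ra minus Il6st reversed, to -0.97, when CPM, which is not divided by length, was used; the cause is the construction of that scale, since the exons of Il6st are 11099 bp long and those of Il27ra 3495 bp. With 1 TPM added, or with every library thinned to the same total, all 10 pairs kept their direction; leaving out a library or removing library trends could not reverse a pair and is no check of its sign. The mean of Lifr fell from 0.0310 to 0.0164 TPM without replicate 3. The number of genes of the family called for variation between libraries, 0 with edgeR, became 1 with no filter on low counts, 1 as DESeq2 dispersion outliers and 1 without replicate 2, with a range of 0 to 1 when each library was left out in turn. That gene was Il27ra each time. The number of all genes called, 1 with edgeR, became 98 with no filter and 43 with DESeq2, and ranged from 1 to 18 when each library was left out; the cause was not tested. Depth limits Lifr, Il12a, Il23r and Il27, which rest on few counts. With 4 libraries the exact test of a pair cannot pass 0.05. No paired analysis was possible because there is only 1 group.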

Other observations

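The promoter windows of the other members differed in composition. The Il6st window had 66% GC and a CpG ratio of 0.959 with 2 NFAT cores, and the Il6ra window 65.2% GC and 0.682 with no match to the 3 motifs. The windows of Il12a, 2 in the table, had 50.8% GC with a ratio of 0.126 and 58.4% GC with a ratio of 0.744, and neither held a match.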
